A study of Mus musculus with 8 samples.

Results

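The genes described here are 10 genes of germ cell specification and early germ cell function: Nanos3, Aurkc, Prdm1, Prdm14, Tfap2c, Dppa3, Dazl, Kit, Ifitm3 and Ddx4. They were taken by symbol from a table of 13558 transcripts, and all 10 were present. Nanos3 and Aurkc entered the set with their difference between knockout and control cells already known from these libraries, so for both genes that difference is given as a description with no test. The other 8 genes were taken by name and were tested. RNA was sequenced from 8 libraries of male C57BL/6 mouse embryonic stem (mES) cells, 4 of each genotype.

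The cells carried a Trim71 gene whose last exon is flanked by loxP sites, together with a Cre recombinase fused to a modified estrogen receptor (CreERT2) in the Rosa26 locus, in both groups. WT denotes the conditional cells (Trimfl/fl, Trim71 intact). KO denotes the cells in which 4-hydroxytamoxifen (4-OHT), given over 2 days, had activated the recombinase (Trim-/-), with at least 7 further days of culture before harvest. The labels give its concentration as 500 nM, while the text of the study names a lower one and a DMSO solvent control, which the labels do not mention. All cells grew with fetal calf serum and leukemia inhibitory factor and were enriched by magnetic sorting for SSEA-1, a surface antigen of mES cells. Only 2 clones, E3 and 1, stand behind the groups: clone E3 gave KO1, KO2, KO3, WT2 and WT3, and clone 1 gave KO4, WT1 and WT4. The labels give each library a day number, and days 3, 4 and 5 hold 1 KO and 1 WT library each of the same clone. Since only KO cells received 4-OHT and activated Cre, the exposure and the loss of Trim71 cannot be told apart. Nothing in the labels says that libraries of 1 clone came from separate cultures, so p-values measure the spread between these libraries.

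In the mouse embryo, bone morphogenetic protein signals from neighbouring tissues induce a small number of epiblast cells to become primordial germ cells. The transcription factors Prdm1, Prdm14 and Tfap2c set up that fate, and Dppa3, Nanos3, Ifitm3 and the receptor Kit mark or protect the cells that take it on. Dazl and Ddx4 encode RNA-binding proteins of later germ cells, and Aurkc is a kinase best known from meiosis. Cultured mES cells are not germ cells, but they transcribe several of these genes, and Prdm14, Tfap2c, Dppa3 and Kit are also active in pluripotent cells.

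The deposited values are normalized read counts from which a difference between the clones had been removed by addition or subtraction of 1 constant per transcript, with 1 as the lowest value allowed. That constant could be solved for, which gave back the whole reads behind 13495 of the transcripts, among them all 10 genes. The reads summed to between 7071007 in WT2 and 26263596 in WT3. Values without the constant are called uncorrected below. Trim71 itself was between 247 and 793 normalized counts in KO and between 1988 and 2782 in WT, so every library matched its label. The mES cell factor Pou5f1 lay between 12374 and 20439 in all 8 libraries. Read counts in bulk cells cannot tell fewer expressing cells from less RNA per cell.

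Nanos3 encodes a zinc finger protein that binds RNA and protects primordial germ cells from death. It was the least abundant of the 10 genes, at 17.9, 14.6, 16.9 and 16.5 normalized counts in WT1 to WT4 and at 2.44, 8.39, 9.74 and 4.84 in KO1 to KO4. All KO values lay below all WT values. The KO mean was 6.35 ± 3.33 and the WT mean 16.5 ± 1.40 (SD, n = 4 each), a difference of -1.39 on the log2(value + 1) scale, with a 95% interval from -2.25 to -0.52. Nanos3 was chosen by this difference, so the interval is a description and no test. The values of Nanos3 rested on few reads: 2, 9, 10 and 4 in KO1 to KO4, and 22, 8, 37 and 13 in WT1 to WT4. The 95% Poisson intervals of counting error overlapped between the genotypes for single libraries, for example 4.43 to 17.0 uncorrected normalized counts in KO3 and 6.08 to 27.8 in WT2. Summed over libraries of unequal depth, 25 reads came from KO and 80 from WT, 37 of these from WT3, the deepest library. The clone correction hardly touched Nanos3, whose uncorrected difference was -1.41. Its gene lies at chr8:84173731-84185217 on the minus strand (GRCm38), and its transcript of 730 bases in 2 exons shared no stretch of 100 bases at 95% identity with another transcript.

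Aurkc, Aurora kinase C, is the germ cell relative of the mitotic Aurora kinases. Its deposited values were 86.1, 44.8, 63.1 and 51.2 in WT1 to WT4 and 21.4, 21.8, 16.1 and 1.00 in KO1 to KO4, again with all KO values below all WT values. The KO mean was 15.1 ± 9.75 and the WT mean 61.3 ± 18.2 (SD, n = 4 each). On the log2(value + 1) scale the difference was -2.71, with a 95% interval from -4.33 to -1.08. Intervals of Aurkc are descriptions as well, since the gene was chosen by this difference. The value of 1 in KO4 was the lowest the table allows, and it did not mean that no read was found. KO4 held 6 Aurkc reads, worth 8.0 normalized counts, from which the clone correction took 7.79. Without that correction the 4 KO libraries stood close together, at 13.6, 14.0, 8.32 and 8.0, beside 93.9, 37.0, 55.3 and 59.0 in WT, and the difference was -2.29 with an interval from -3.06 to -1.53. Over all libraries, not scaled for depth, 45 reads came from KO and 303 from WT, 125 of these from WT3. Without KO4 the deposited values gave -1.39.

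**Figure D1:**
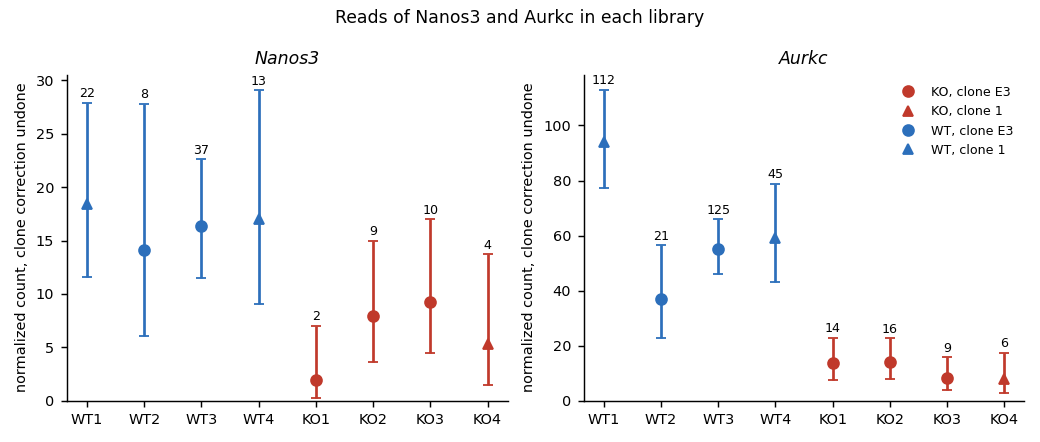
Normalized count of Nanos3 (left) and Aurkc (right) in each library with the clone correction undone, on linear axes from 0. Points are single libraries (circles, clone E3; triangles, clone 1), bars are 95% Poisson intervals of counting error, and the number above each bar is the reads behind it. Aurkc stood at 8.0 to 14.0 in KO and 37.0 to 93.9 in WT. Nanos3 rested on 2 to 10 reads in KO and 8 to 37 in WT.

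The measurement of Aurkc carries an uncertainty of identity. The Aurkc transcript of 1401 bases (chr7:6995300-7003091, plus strand, 7 exons) is near-identical to 5 annotated pseudogenes. Closest is Gm12463, a processed pseudogene at chr4:44752277-44753125 on the minus strand, which differs at 7 of 849 aligned bases. None of the 5 has a row of its own in the table. Reads from such copies may be counted under Aurkc, so its values are uncertain to that degree. The 30 bases with the most differences, at positions 1225 to 1254 of the Aurkc transcript (GENCODE M21), are shown to let the similarity be seen, with the 3 differing bases in capitals:
Aurkc: ggaacactctcgaagggtgctTcctTgctA
Gm12463: ggaacactctcgaagggtgctGcctCgctG

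Kit was the only one of the 8 tested genes to pass the study's criterion (unadjusted p under 0.05 and a change of at least 1.5-fold). Kit is the receptor for stem cell factor, which primordial germ cells need to survive and migrate. It measured 2376, 1184, 2332 and 1445 normalized counts in WT1 to WT4 and 989, 922, 1529.6 and 944 in KO1 to KO4. WT2 and WT4 fell below KO3, so the groups overlapped. The difference was -0.72 ± 0.30 (log2, SE), or 1.64-fold lower in KO, with an adjusted p = 0.547 (limma, Benjamini-Hochberg over all transcripts). An exact two-sided permutation test with 70 possible arrangements of the labels, whose smallest possible p is 0.0286, gave p = 0.0857 for Kit. Across the table, 2.49% of transcripts passed this criterion in the lower direction, and no transcript had an adjusted p under 0.05. There were 1232 transcripts with unadjusted p under 0.05 and 576 past the criterion, 338 lower and 238 higher in KO.

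The call for Kit was lost in 11 of 20 alternative analyses. It was lost without KO1, KO2, KO4, WT1 or WT3, where the difference was between -0.68 and -0.50, and with clone E3 alone (-0.57). With every library kept, it was also lost on a linear scale (adjusted p = 0.592) and after removal of each library's trend with GC content and length (-0.61, adjusted p = 0.573). Kit has the longest transcript of the 10 genes, at 5241 bases. With the day as a replicate block over days 3, 4 and 5, Kit differed between KO and WT by -0.36, -0.61 and -0.61 in the 3 same-day pairs on the log2 scale. The mean difference was then -0.53 ± 0.11 with an adjusted p = 0.207, with the unadjusted p under 0.05 but the change short of 1.5-fold. That block raised the transcripts past the criterion to 1015, again with an adjusted p under 0.05 for 0 of them and an unadjusted one for 2601.

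**Figure D2:**
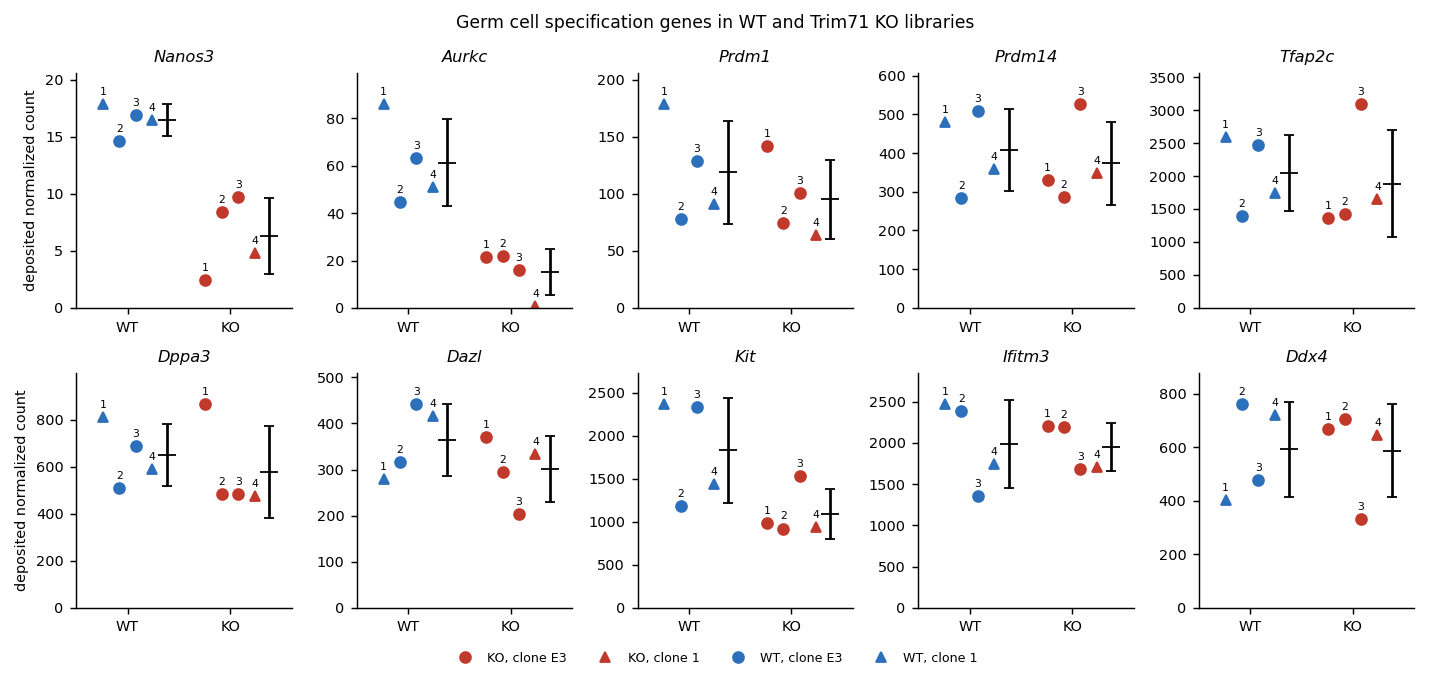
Deposited normalized counts of the 10 genes in each library, on linear axes from 0. Points are single libraries (blue, WT; red, KO; circles, clone E3; triangles, clone 1) with their replicate number, and black bars give the group mean and SD. Nanos3 and Aurkc, which were chosen by this difference, show no overlap between groups, and the other 8 genes overlap.

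The ligand of Kit was lower as well. Kitl, which encodes stem cell factor, measured 82.8, 72.2, 80.9 and 65.5 in WT and 50.1, 45.6, 22.8 and 42.7 in KO, so the groups did not overlap. It was 1.90-fold lower in KO (log2 difference -0.93 ± 0.26, exact permutation p = 0.0286, adjusted p = 0.452). Its unadjusted p stayed under 0.05 in all 20 alternative analyses, with differences between -1.15 and -0.63. Across all transcripts 4.62% had KO values wholly below WT values and 5.48% wholly above.

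The transcription factors that specify primordial germ cells showed no difference between genotypes that passed the test. Prdm1, also called Blimp1, represses the somatic programme in these cells. It measured 179, 78.2, 129 and 90.8 in WT and 142, 74.3, 101 and 64.0 in KO, a difference of -0.34 with an interval from -1.18 to 0.50 (exact permutation p = 0.429). Prdm14, which supports both germ cell fate and naive pluripotency, was 481, 284, 508 and 358 in WT and 331, 286, 527 and 349 in KO. Its difference was -0.12 with an interval from -0.76 to 0.52 (exact permutation p = 0.743). Tfap2c, which encodes the factor AP-2 gamma downstream of Prdm1, measured 2597, 1397, 2472 and 1747 in WT and 1366, 1431, 3094 and 1647 in KO. Its difference was -0.15 with an interval from -0.95 to 0.65 (exact permutation p = 0.686). With the replicate block by day, Prdm14 and Tfap2c turned to 0.01 and 0.09. All 3 intervals include a change of 1.5-fold downwards, and that of Tfap2c also includes one upwards.

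Tfap2c, Prdm14 and Kit varied together over libraries in a way that did not follow genotype. For each of them the 3 highest libraries were KO3, WT1 and WT3, which come from both clones. The same 3 libraries were highest for 5 of the 10 mES cell markers, among them Nanog, with 17228 in KO3, 15746 in WT1 and 16330.5 in WT3 beside 9099 to 13121 elsewhere. They were highest for 9.32% of all transcripts. Ddx4 showed the reverse, with its 3 lowest values in KO3, WT1 and WT3. KO3 and WT3 share a day. The correlation between a transcript's GC content and its deviation from the median over libraries, across 10492 transcripts, was 0.683 in KO3, -0.24 in WT1 and 0.226 in WT3, and lay between -0.301 and 0.139 in the others. The same correlation with log2 transcript length was -0.437, -0.203, -0.248 and 0.085 in KO1 to KO4 and 0.342, 0.025, 0.068 and 0.24 in WT1 to WT4, so that only KO4 among the KO libraries lay within the WT range. With each library's trend with GC content and length removed, the genotype difference was -0.61 for Kit, -0.18 for Tfap2c, -0.13 for Prdm14 and 0.09 for Ddx4, beside -0.72, -0.15, -0.12 and -0.02 before.

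Dppa3 and Ifitm3, classical markers of newly formed germ cells, did not pass the test either. Dppa3, also called Stella, protects the maternal genome from loss of methylation in the zygote. It measured 810.4, 508, 689 and 589 in WT and 868, 482, 483 and 476 in KO, a difference of -0.20 with an interval from -0.81 to 0.42 (exact permutation p = 0.486). On deposited values KO1 was the highest of all 8 libraries and the other KO libraries were the 3 lowest. Uncorrected, KO1 was still highest and KO4 lowest, but KO2 and KO3 (699.9 and 701) lay above WT1 and WT4 (593 and 371). Ifitm3, also called Fragilis, encodes a membrane protein of the interferon-induced family. It was 2476, 2383, 1359 and 1742 in WT and 2204, 2196, 1687 and 1712 in KO, and the difference of 0.00 had an interval from -0.55 to 0.56 (exact permutation p = 1). A change of 1.5-fold lay outside that interval in both directions.

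Ifitm1, the neighbour of Ifitm3 in the same gene cluster, passed the criterion. It measured 2532, 1847, 1446 and 1313 in WT and 1446, 1187, 924 and 817 in KO. The difference was -0.73 ± 0.28 (exact permutation p = 0.0857, adjusted p = 0.516), 1.65-fold lower in KO, and it was lower in KO in each of the 3 same-day pairs by nearly the same amount (-0.64, -0.65 and -0.68). The call was lost in 7 of 20 alternative analyses, among them those without KO3, KO4, WT1 or WT2. Ifitm1 alone passed the criterion among the 4 measured genes of the Ifitm list, which does not hold Ifitm3. Ifitm2 measured 2337 to 2939 in WT and 2470 to 2942 in KO, and Ifitm5 measured 11.9 to 22.3 in WT and 10.7 to 17.0 in KO. Whether the genotype difference of Ifitm1 differed from that of Ifitm3 was not tested.

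Dazl and Ddx4 mark germ cells that have reached the gonad. Dazl, which binds messenger RNA and promotes its translation, measured 279, 317, 443 and 416 in WT and 371, 294, 204 and 333 in KO. Its difference was -0.28 with an interval from -0.86 to 0.31 (exact permutation p = 0.286), and it was 0.00 once the trend with GC content and length was removed from each library. Ddx4, the RNA helicase also called mouse Vasa homologue, was 403, 763, 478 and 722 in WT and 669, 705, 329.9 and 645 in KO. Its difference was -0.02 with an interval from -0.81 to 0.77 (exact permutation p = 0.971), and it turned to 0.09 once that trend was removed. Both transcripts are poor in GC, with 37.0% for Dazl and 43.1% for Ddx4, and both were lowest in KO3.

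**Figure D3:**
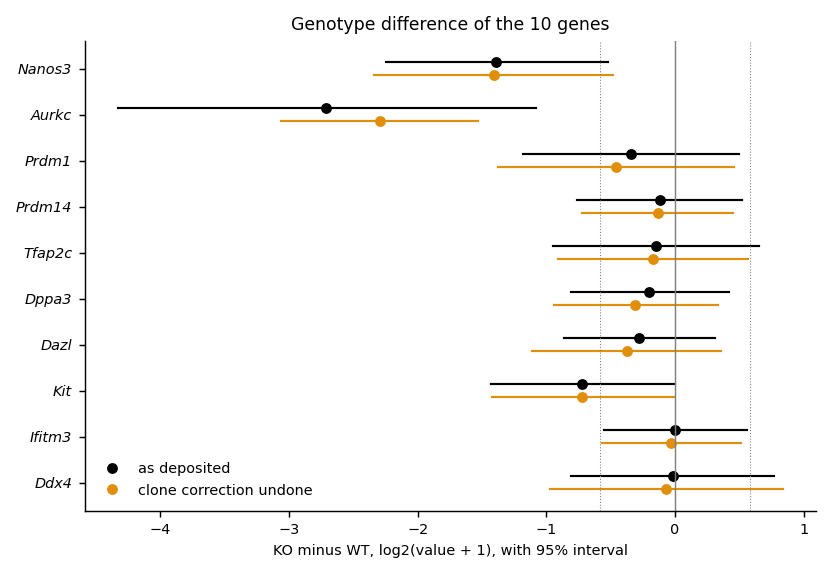
Difference between KO and WT of each gene on the log2(value + 1) scale, with its 95% interval, from the deposited values (black) and with the clone correction undone (orange). Dotted lines mark 1.5-fold. Aurkc moved from -2.71 to -2.29 when the correction was undone, and each of the other genes moved less. Intervals of Nanos3 and Aurkc are descriptions, since both were chosen by this difference.

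Within days, KO was compared with WT of the same clone. Prdm1, Dppa3, Dazl, Kit and Ddx4 were each lower in KO in all 3 same-day pairs, that is 5 of 8 genes, beside 25.5% of all transcripts. No tested gene was higher in all 3 pairs, beside 24.6% of all transcripts. On day 3 the differences were only -0.07 for Prdm1, -0.08 for Dppa3, -0.11 for Dazl and -0.11 for Ddx4. Day 4, the pair with KO3, gave the largest for Dppa3 (-0.51), Dazl (-1.11) and Ddx4 (-0.54), and day 5 for Prdm1 (-0.5). Over all 8 libraries, with the trend of GC content and length removed, Dazl was at 0.00 and Ddx4 at 0.09. Prdm1, Dppa3 and Kit were then at -0.28, -0.22 and -0.61. The blocked differences were -0.31 ± 0.13 for Prdm1, -0.30 ± 0.13 for Dppa3, -0.51 ± 0.23 for Dazl and -0.27 ± 0.13 for Ddx4 (log2, SE, limma with the day as a replicate block). Their adjusted p lay between 0.279 and 0.316 and none of these 4 passed an unadjusted p of 0.05, and the 3 pairs are shared by all genes. Nanos3 differed by -0.73, -0.73 and -1.59 and Aurkc by -1, -1.91 and -4.71 in the pairs of days 3, 4 and 5. The last value for Aurkc includes KO4 at the lowest value possible.

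The levels of the 10 genes spanned a wide range in WT cells. On the scale of uncorrected normalized counts per kilobase of transcript, Ifitm3 stood highest at 2935 ± 823 (SD, n = 4). Dppa3 at 779 ± 271 and Tfap2c at 724 ± 215 followed, and their ranges overlapped. Kit at 350 ± 115, Ddx4 at 196 ± 63.7, Prdm14 at 159 ± 48.0 and Dazl at 122 ± 35.4 formed a middle range in which each gene overlapped with the next. Aurkc at 43.7 ± 17.0, Prdm1 at 29.6 ± 10.6 and Nanos3 at 22.6 ± 2.49 were lowest, and again neighbours overlapped. In KO cells Aurkc was at 7.85 ± 2.34 and Nanos3 at 8.36 ± 4.4 on the same scale.

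The clones differed for some of these genes, which the deposited values no longer show. This contrast was added after the values had been seen. Dppa3 had 1085, 699.9, 701, 726 and 907 uncorrected normalized counts in the 5 libraries of clone E3 (KO1, KO2, KO3, WT2, WT3) and 259, 593 and 371 in the 3 of clone 1 (KO4, WT1, WT4), so the clones did not overlap. It was 2.23-fold lower in clone 1 (log2 difference -1.16 ± 0.28, adjusted p = 0.509), and an exact permutation test gave p = 0.0179, the smallest that 3 against 5 libraries can give. Of all transcripts 1.05% were lower in clone 1 by the same criterion, and Dppa3 was the only one of the 10 genes to pass it in either direction. Dazl stood higher in clone 1 by 0.75 with an interval from -0.01 to 1.5, and Prdm1 differed by -0.87 with an interval from -1.82 to 0.08. No day held both clones, so clone and day cannot be told apart here. Adjusted p under 0.05 was reached by 0 transcripts in this contrast, and unadjusted p under 0.05 by 1124.

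Part of the Dppa3 reads may come from a near-identical copy. Dppa3-ps, a transcribed processed pseudogene at chrX:37625647-37626097, differs from the Dppa3 transcript (chr6:122626410-122630272, plus strand, 833 bases) at 8 of 451 aligned bases, and it has no row of its own. The window with the most differences, at positions 261 to 290 of the Dppa3 transcript, shows them in capitals:
Dppa3: gtcaagcggtccgcacgCCggcgcagtctA
Dppa3-ps: gtcaagcggtccgcacgTAggcgcagtctC

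**Figure D4:**
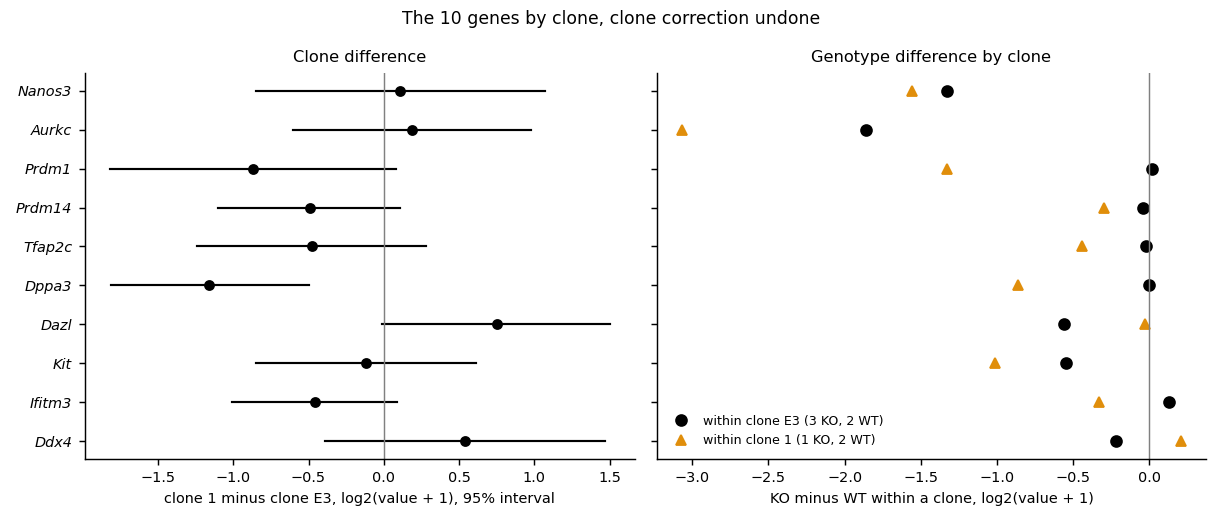
Left, difference between clone 1 and clone E3 for each gene with its 95% interval. Right, difference between KO and WT within clone E3 (circles, 3 KO and 2 WT libraries) and within clone 1 (triangles, 1 KO and 2 WT libraries). Both are on the log2(value + 1) scale of uncorrected normalized counts. Nanos3 was lower in KO in both clones (-1.33 and -1.56), as was Aurkc (-1.86 and -3.07), and Dppa3 stood at -1.16 on the left.

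The genotype difference was compared between clones by an interaction term. None of the 10 genes had an adjusted p under 0.05 for it, beside 0.0885% of all transcripts, or 12 (limma, with 351 at an unadjusted p under 0.05). For Aurkc the term was -3.68 with an adjusted p of 0.128 on deposited values and -1.20 with an adjusted p of 1 with the correction undone. Prdm1 was lower in KO within clone 1 (-1.33, 1 KO against 2 WT libraries) and level within clone E3 (0.02), and the interaction of -1.35 had an adjusted p of 1. Kit differed by -0.55 within clone E3 and by -1.01 within clone 1.

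Genes around the 10 were read from lists of their signals, partners and downstream programmes. Of 114 listed germ cell transcripts, without Nanos3 and Aurkc, 8 passed the criterion, 5 lower and 3 higher in KO. That is 7.02%, beside 4.25% of all transcripts. Leaving out KO4 gave 2 (1 lower, 1 higher), leaving out WT1 or WT2 gave 5 each (4 and 1), and clone E3 alone gave 3 (2 and 1). More passed with the replicate block by day, 12 (10 lower, 2 higher), as with voom and that block, 12 (11 and 1), and with no clone term, 10 (7 and 3).

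**Figure D5:**
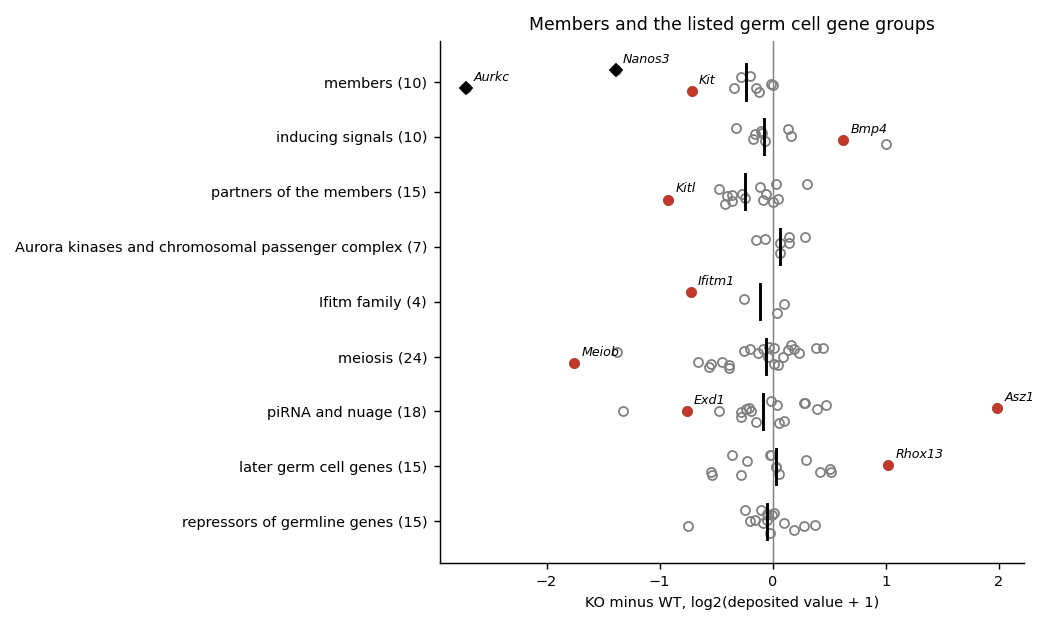
Difference between KO and WT for each measured gene of the lists, as log2(deposited value + 1), with the number of measured genes in brackets. Open circles are single genes, red circles passed the criterion, black diamonds are Nanos3 and Aurkc, and vertical bars are list medians, which ran from -0.24 to 0.07.

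Among the signals that induce germ cells, 10 of 11 listed genes were measured and Bmp4 alone passed, in the higher direction. Bmp4, a ligand that the extraembryonic ectoderm sends to the epiblast, measured 188 to 302 in WT and 326 to 427 in KO, with no overlap. It was 1.54-fold higher (log2 difference 0.63 ± 0.18, exact permutation p = 0.0286, adjusted p = 0.452), and 1.76% of all transcripts passed in this direction. The call was lost in 5 of 20 alternative analyses, among them those without KO4 (0.46) or WT1 (0.52) and with the trend of GC content and length removed (0.58). The list's median difference was -0.08, against 0.000 over all transcripts. The receptor Bmpr1a measured 1119 to 1311 in WT and 715 to 1317 in KO, and the mediator Smad4 measured 963 to 1127 and 1009 to 1199.

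Kitl was the single gene past the criterion among 15 measured partners, whose median was -0.24. Cnot1, the scaffold of the deadenylase complex to which Nanos proteins bind, measured 7303 to 8241 in WT and 4586 to 7227 in KO without overlap. Its difference of -0.40 ± 0.17 (exact permutation p = 0.0286, adjusted p = 0.541) stayed short of 1.5-fold. With the replicate block by day it was -0.39 with an adjusted p = 0.287, and after removal of the trend with GC content and length it was -0.19 with an adjusted p = 0.646. Neither was under 0.05 unadjusted, and the same held in 10 of 20 alternative analyses. Prmt5, the arginine methyltransferase that works with Prdm1, was at 4360 to 5006 in WT and 4662 to 5264 in KO. Nanos1, a relative of Nanos3 named here after its values had been seen, measured 111, 104, 119 and 104 in WT and 85.9, 83.2, 81.4 and 88.5 in KO. It did not overlap between groups and differed by -0.36 ± 0.11 (exact permutation p = 0.0286, adjusted p = 0.453), a smaller difference than 1.5-fold.

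None of the 7 Aurora kinase and chromosomal passenger genes passed, and their median difference was 0.07. The mitotic kinases stayed at high levels, with Aurka at 2753 to 3145 in WT and 2836 to 3366 in KO. Aurkb, named after its values had been seen, was at 1862 to 2432 and 2190.2 to 2597. Their cofactors Tpx2 (4194 to 4720 in WT, 3121 to 4693 in KO) and Incenp (2944 to 3234 and 2799 to 3021) overlapped as well.

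Of the meiosis genes 24 of 30 were measured, and 1 passed. Meiob, which encodes a single-strand DNA-binding protein of meiotic recombination, measured 33.1, 12.7, 17.2 and 4.83 in WT and 7.23, 7.42, 4.11 and 1.00 in KO (log2 difference -1.75 ± 0.61, exact permutation p = 0.0857, adjusted p = 0.486). These rested on 1 to 8 reads in KO and 4 to 40 in WT, and the call was lost without KO4 (-1.16) or WT3 (-1.83). The abundant list members Smc3 and Brca2, which mitotic cells also use, overlapped between groups, and both were lowest in KO3 at 1061 and 412.

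The piRNA and nuage list, of which 18 of 20 genes were measured, had 1 gene lower and 1 higher. Exd1, which takes part in piRNA production, measured 43.0 to 58.9 in WT and 18.8 to 42.5 in KO without overlap (log2 difference -0.76 ± 0.27, exact permutation p = 0.0286, adjusted p = 0.491), and the call was lost in 11 of 19 alternative analyses. These include the replicate block by day (adjusted p = 0.273), clone E3 alone (-0.34), the removal of the trend with GC content and length (-0.63), and leaving out KO2, KO4, WT1 or WT4. Asz1 measured 1.00 to 8.95 in WT and 7.00 to 31.0 in KO (1.99 ± 0.71, exact permutation p = 0.143, adjusted p = 0.491). WT2 and WT3 stood at the lowest value of the table, its reads could not be given back, and the call was lost with the replicate block (adjusted p = 0.287) and without KO2, WT2 or WT3. Tex19.1, the most abundant gene of the list, lay at 2327 to 4530 in WT and 2926 to 4646 in KO.

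Among 15 of 21 later germ cell genes Rhox13, an X-linked homeobox gene, was higher in KO at 5.58 to 19.6 beside 3.41 to 6.13 in WT (1.02 ± 0.37, exact permutation p = 0.0571, adjusted p = 0.491). It rested on 3 to 21 reads a library, and the call was lost in 12 of 19 alternative analyses, among them those without KO4, WT1, WT2 or WT3. Tex14, a gene of germ cell bridges, measured 1291 to 1558 in WT and 521 to 1343 in KO, with the low end in KO3. None of the 15 repressors of germline genes passed. Dnmt1 and Uhrf1, which maintain DNA methylation, lay at 5760.1 to 6911 and 4182 to 6069 in WT and at 4972 to 5964 and 4383 to 5589 in KO. The imprint protector Zfp57 measured 10088 to 12699.8 in WT and 12372 to 16319 in KO.

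The promoters of the genes were searched on both strands for letters that repressors of germline genes are known to bind. These were CACGTG (an E-box, bound by Mga with Max) and GCGGGA (bound by E2f6). RefSeq promoter sequences, 250 bases before to 50 after the start site, were at hand for 7 of the 10 genes, with 2 for Kit. The E-box occurred in 1 of these 8 promoters, that of Ddx4, and in 7.15% of 32851 promoters. GCGGGA occurred in 3 of 8, those of Ddx4 and Kit, and in 20% of all promoters. The 2 Kit promoters overlap and hold the same matches, so by gene these are Ddx4 and Kit among the 7. The matches of Ddx4 (GRCm38, minus strand) at chr13:112652322-112652351, which begins its E-box 29 bases before the start site, and at chr13:112652429-112652458, and the first match of Kit (plus strand) at chr5:75574858-75574887 are printed with the motif in capitals. They show which of the genes carry the letters, and a match is no evidence of binding:
Ddx4 E-box: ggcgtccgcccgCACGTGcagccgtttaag
Ddx4 E2F letters: tccgtccatgggGCGGGAagtcgcgcgccg
Kit E2F letters: gggcactaggcaGCGGGAgggagtgcgacc

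Markers of other cells and states were read beside these results. Of 9 markers of 2-cell-like cells, a rare transient state in mES cell cultures, 5 were measured, and Zscan4c, Zscan4d, Gm5662 and Usp17la passed the criterion in the lower direction. Their summed level on deposited values, with the fifth marker, was 7.97 to 62.0 in KO and 96.0 to 171 in WT, which did not overlap. The sum was not taken with the clone correction undone. Gm5662 then overlapped between groups, with 12 in KO4 above 9.29 in WT3, and Zscan4d overlapped with and without the correction. The fifth marker, Zscan4f, passed lower only with the correction undone (-1.59, adjusted p = 0.484, beside -1.67 as deposited). Zscan4c measured 40.9, 32.8, 25.8 and 63.0 in WT and 17.0, 18.7, 19.7 and 1.00 in KO (-2.08 ± 0.75, exact permutation p = 0.0286, adjusted p = 0.491). Zscan4c and Zscan4d belong to a family of near copies whose reads may be split, and with the replicate block by day their adjusted p was 0.332 and 0.331, no longer under 0.05 unadjusted. The call for Zscan4c was also lost without WT1, and without KO4 its difference on deposited values was -0.63. Its reads were 0, 2, 3 and 4 in KO1 to KO4 and 69, 9, 20 and 61 in WT1 to WT4. The clone correction had added 17.0 to each clone E3 value of Zscan4c. With that correction undone its difference was -2.88 (adjusted p = 0.163), and within clone E3 it was -2.56. Zscan4d held 2, 2, 0 and 4 reads in KO and 28, 1, 15 and 21 in WT, with 6.96 added in clone E3. The call for Zscan4d was lost in 10 of 19 alternative analyses, among them those without KO3, KO4, WT1, WT3 or WT4. The call for Usp17la was lost with the block as well (adjusted p = 0.267). These markers moved in the same direction as Nanos3, Aurkc, Kit and Kitl, and their part in those differences was not tested.

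On deposited values, no fibroblast (6 of 12 measured), primitive endoderm (10 of 10), mesoderm (5 of 9), blood cell (4 of 8) or mES cell marker (10 of 10) passed the criterion. With the clone correction undone, the fibroblast marker Pdgfrb passed lower (-0.82, adjusted p = 0.512, beside -0.53 as deposited). The blood cell marker Ptprc then passed higher (4.99, adjusted p = 0.443, beside 1.65 as deposited). Ptprc held 40, 154, 96 and 101 reads in KO1 to KO4 and 1, 0, 0 and 201 in WT1 to WT4. Its uncorrected value in WT4, 263, was the highest of all 8 libraries, so the groups overlapped. Of the neural markers (8 of 8) Olig2 was 1.6-fold higher in KO (518 to 695 in WT, 841 to 1111 in KO, exact permutation p = 0.0286, adjusted p = 0.424) and Neurog1 1.55-fold lower (102 to 178 and 72.7 to 106, exact permutation p = 0.0857, adjusted p = 0.525). The call for Neurog1 was lost in 11 of 20 alternative analyses, among them those without KO1, KO2, KO4, WT1 or WT3 and the replicate block by day (-0.40), and that for Olig2 in 4 of 20, among them that without KO4. Fibroblast markers summed to 7235 to 16204 in KO and 9885 to 17494 in WT, mostly Fn1, while Col3a1, Col6a1, Lum, Postn and Dcn have no row in the table. Primitive endoderm markers summed to 438 to 798 in KO and 107 to 872 in WT. Of these 10 markers, 8 were higher in KO by their mean difference on deposited values, with a list median of 0.87, the highest of all lists. The clone correction had lowered WT1 from 52.8 to 1.72 for Gata4 and from 58.7 to 1.00 for Cubn. With the correction undone, the difference went from 1.41 to 0.65 for Gata4, from 0.52 to -0.28 for Cubn and from -0.34 to -0.41 for Dab2. The part of these markers in the differences above was not tested.

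The transcripts whose values over the 8 libraries were most like those of Nanos3, among transcripts with a mean of at least 20, were Slc39a6 (Pearson r of log2 values 0.985), Plagl2 (0.978), Fhod1 (0.976), D2hgdh (0.972) and Kcnh1 (0.967). Slc39a6 measured 276 to 326 in KO and 343 to 361 in WT. For Aurkc they were Prr19 (0.980), Nexn (0.980), Slc11a1 (0.975), Serpina3m (0.970) and Rpl39l (0.967), with Prr19 at 46.1 to 128 in KO and 160 to 237 in WT. These are descriptions over 8 libraries that share the same 2 groups and the same clone correction.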

How the data were processed

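Poly(A) RNA libraries (TruSeq v2, not stranded) of 8 mES cell samples were processed by the authors with CASAVA 1.8, TopHat2 and Bowtie2 2.2.1 against mm10, and counted per RefSeq transcript in Partek 6.6. The deposited signal is a normalized count: the authors scaled it with DESeq2 size factors, removed the clone difference in Partek, set values under 1 to 1 and kept transcripts whose higher group mean reached 10. Tests on the table showed that the correction added a constant to clone E3 and took it from clone 1, or the reverse, depending on the transcript. The clone difference was 0 in each of the 13350 transcripts that held no value of 1. Whole reads were given back for 13495 of 13558 transcripts, and 63 had no unique solution. On simulated data 99.8% of transcripts were given back exactly and 0 wrongly.

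Values were tested as log2(value + 1) with limma 3.58.1 in R 4.3.3 (genotype plus clone, all transcripts, Benjamini-Hochberg adjustment), since the deposited values are not counts. Single genes were also tested by exact two-sided permutation of the library labels (70 arrangements). A transcript passed with unadjusted p under 0.05 and at least 1.5-fold, which is the study's criterion. On simulated data with 200 of 13495 transcripts changed by 2 on the log2 scale, 183 of them and 7 others had an adjusted p under 0.05, and 200 and 633 others passed the criterion. The day of the labels pairs 3 KO with 3 WT libraries: deviations from group means, correction undone, correlated at 0.519 to 0.627 within the 3 days, and at a median of -0.178 in the 13 other pairs, although same-day libraries also share their clone. On deposited values the 3 correlations were 0.419, 0.54 and -0.228. Poisson intervals (95%) cover counting error only.

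Replicate numbers follow the order of deposit. The members, gene lists, tests and alternatives were chosen with earlier results of these data known. Named genes were all members, the genes of each list past the criterion, up to 3 per list by mean level, and 5 transcripts each most like Nanos3 and Aurkc. Gene positions come from GENCODE M21, near-identical transcripts from BLAST 2.17.0 (at least 95% over 100 bases) and promoters from RefSeq (GRCm38.p6). GC content and length were known for 94.8% of transcripts. Alternatives were another pseudocount (10), a linear scale, a mean of at least 50, no clone term, the day block, the correction undone, voom on the reads given back, clone E3 alone, a trended robust prior and each library left out. Added later were voom with the day block, clone E3 with the correction undone, and removal of each library's trend with GC content and length by splines.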

Additional observations from a re-analysis of the deposited data

Results flagged for a closer look

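Among 136 groups of 4 values checked (68 genes, those named by the rule with Nanos1 and Aurkb, each in KO and in WT), 11 held a library whose gap to the nearest other value exceeded Dixon's 95% critical share of the group's range, and chance alone gives about 6.8. Of the genes described, these were Tfap2c in KO3 (3094, the others 1366 to 1647), Kit in KO3 (1529.6, the others 922 to 989), Ddx4 in KO3 (329.9, the others 645 to 705) and Dppa3 in KO1 (868, the others 476 to 483). The other 7 were Ifitm2 in WT1 (2939), Zfp57 in WT1 (10088), Thy1 in WT1 (54.1), Zscan4c in KO4 (1.00), Gm5662 in KO4 (3.97), Usp17la in WT4 (16.5) and Rpl39l in WT1 (153).

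With the clone correction undone, only Gm5662 in KO4 and Rpl39l in WT1 of these 11 exceeded Dixon's critical share. Gm5662 in KO4 changed side, from the lowest KO value (3.97, the others 10.7 to 11.7) to the highest (12, the others 2.63 to 3.7). For Ifitm2 the library past that share was WT4 in place of WT1, with a gap of 0.863 of the range. For Dppa3 the library farthest from the rest was then KO4, with a gap of 0.534 of the range, and no longer KO1. Both Zscan4c in KO4 and Aurkc in KO4 stood at 1.00 after the correction, with 4 and 6 reads.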

How the results depend on the processing

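Across 20 alternatives, 17 planned and 3 added after seeing the data, Nanos3 and Aurkc stayed below 0 in each of the 19 that kept them (Nanos3 -1.59 to -0.72, Aurkc -3.25 to -1.39). Since both were chosen by this difference in the same libraries, their direction here is a description and no independent support. The 576 transcripts past the criterion became 274 on the linear scale, 315 with a mean of at least 50, 278 with clone E3 alone (322 with the correction undone), 1015 with the replicate block by day, 1079 with voom and that block, and 260 to 835 with 1 library left out, where without WT3 more were higher (452) than lower (383). The 8 listed germ cell transcripts became 2, 5, 3 and 3 in the first 4 of these. They became 2 to 8 with 1 library left out. Without the trend of GC content and length they became 5, beside 550 of all transcripts. The 12 interactions became 0 with a pseudocount of 10, 0 with the correction undone, and 0 to 76 with 1 library left out. The interaction could not be fitted without KO4. The cause was not tested.

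Of 160 values of the 8 tested genes, 128 kept direction and side of an unadjusted p of 0.05, 9 lost it (all Kit, which also fell short of 1.5-fold in 2 more), 1 passed (Dppa3, -0.29 with voom and the block) and 22 turned sign. Ifitm3 turned to -0.03 on the linear scale, -0.03 with the correction undone, -0.02 with voom and -0.12 after removal of the trend with GC content and length, and Ddx4 to 0.02 and 0.09 with the last 2. Prdm14 and Tfap2c turned to 0.01 and 0.09 with the block and to 0.01 and 0.08 with voom and the block, and Prdm1 to 0.02 with clone E3 alone, with and without the correction. With 1 library left out the ranges were -0.26 to 0.17 for Ifitm3, -0.17 to 0.21 for Ddx4, -0.64 to 0.02 for Prdm1, -0.36 to 0.08 for Prdm14 and -0.41 to 0.03 for Tfap2c. The 15 other genes given with a test kept direction in all of 288 values, and 81 of these lost the threshold of p. By the whole criterion, the 13 of them that had passed it lost it in 76 of 248 values, 9 by fold alone. Those 13, and Nanos1, had been named from their values in these libraries, so their kept direction is no independent support. Depth limited Nanos3, Aurkc in KO, Meiob and Rhox13, at 2 to 10, 6 to 16, 1 to 8 and 7 to 21 KO reads.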
